A study of Homo sapiens with 2 samples.

Results

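The genes described here encode core subunits of the Polycomb repressive complexes. They were chosen by name as 10 of the 36601 genes in the files: 7 of Polycomb repressive complex 1 (PRC1), which are BMI1, PCGF1, PCGF3, PCGF5, PCGF6, RING1 and RNF2, and 3 of Polycomb repressive complex 2 (PRC2), which are EZH2, SUZ12 and EED. PRC2 methylates histone H3 at lysine 27 through its enzyme EZH2, and SUZ12 and EED hold that enzyme in its active form. PRC1 adds ubiquitin to histone H2A through RING1 or RNF2, each of which binds 1 PCGF protein, and the PCGF protein sets which further partners join. Both complexes keep developmental genes silent, and BMI1, which is PCGF4, and EZH2 are well known in blood stem cells and leukemia.

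Single-cell RNA-seq (10x Genomics) was available for 2 libraries of an established human leukemia line. The first held cells treated with SP11, a small-molecule HSP90 inhibitor, at 0.8 µM for 48 h, and the second held untreated cells. The study's methods give no separate collection time for the untreated cells. Both are labelled MOLT4, a line of T-cell acute lymphoblastic leukemia. With 1 library per group no difference below has a replicate check, no test between conditions was possible, and each value compares these libraries. The comparison asks which Polycomb subunit transcripts differed between SP11-treated and untreated cells, and whether PRC1 and PRC2 differed alike.

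The SP11 library held 852 kept cells with 9498802 UMIs (unique molecular identifiers, each marking 1 captured RNA molecule), and the control library held 1053 kept cells with 19375163 UMIs. A kept SP11 cell had a median of 10489 UMIs and a kept control cell 17711. Levels are therefore given as CPM, in which UMIs are scaled to the same total in each library, and shares of cells at equal depth. Intervals are exact 95% intervals that cover counting error only, except those for shares of cells. The latter apply the binomial formula to expected numbers of cells, so they are approximate and cover the sampling of cells within a library. The median log2 ratio of SP11 CPM to control CPM was -0.35 over 12128 measured genes, those with at least 50 UMIs over both libraries, so a gene at -0.35 lay at the middle of all genes. With TMM and DESeq2 scaling that median was -0.01 and 0.01. The label was checked against 16 T-lineage markers, which summed to 1.58 CPM in SP11 and 1.55 CPM in control, with 9 of the 16 at 0 UMIs in both, CD3D among them. Of 13 markers of granulocyte precursors or monocytes, 9 reached 10 CPM in SP11 and 8 did in control, and their sums were 1925 and 2269 CPM. Single markers of this list differed in both directions beside the Polycomb values below, with S100A8 (5.47), S100A9 (2.29) and LYZ (1.61) higher in SP11 and AZU1 (-2.21), SPI1 (-1.69), PRTN3 (-1.43) and ELANE (-1.22) lower, as log2 ratios, and their part in the results was not tested. The expected T-lineage transcripts were thus absent or close to it, and the cells are called by their label only. The libraries shared 114 cell barcodes, of which 112 were kept in SP11 and 111 in control, and leaving them out moved the member ratios, the PRC1 and PRC2 sums, their odds ratio and the BMI1 share of PCGF UMIs by less than counting error.

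The promoters of 3 members are shown first because BMI1 had the largest difference between the libraries and because EZH2 and SUZ12 were the members with letters of an E2F site in a window. E2F factors drive genes of DNA replication, and EZH2 is a known E2F target. Each window runs from 250 bases before to 50 bases after a transcript start of RefSeq (GRCh38.p14), written 5′ to 3′ on the gene's own strand, and capitals mark the E2F letters. The printed BMI1 window is chr10:22320849-22321148 (plus strand), the printed EZH2 window is chr7:148884242-148884541 (minus strand), and the SUZ12 window is chr17:31936757-31937056 (plus strand). BMI1 and EZH2 each had another window, not printed and without E2F letters.
BMI1 promoter: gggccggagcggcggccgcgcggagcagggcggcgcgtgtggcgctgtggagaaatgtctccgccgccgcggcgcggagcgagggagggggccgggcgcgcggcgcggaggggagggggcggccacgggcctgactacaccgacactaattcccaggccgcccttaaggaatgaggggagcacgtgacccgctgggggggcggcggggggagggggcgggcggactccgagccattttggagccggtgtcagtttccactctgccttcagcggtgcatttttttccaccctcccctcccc
EZH2 promoter: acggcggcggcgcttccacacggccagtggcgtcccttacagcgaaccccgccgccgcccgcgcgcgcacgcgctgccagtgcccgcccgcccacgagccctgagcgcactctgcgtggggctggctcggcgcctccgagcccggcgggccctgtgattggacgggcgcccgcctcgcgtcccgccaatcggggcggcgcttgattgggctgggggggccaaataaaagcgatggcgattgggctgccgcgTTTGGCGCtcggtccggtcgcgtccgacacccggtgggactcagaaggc
SUZ12 promoter: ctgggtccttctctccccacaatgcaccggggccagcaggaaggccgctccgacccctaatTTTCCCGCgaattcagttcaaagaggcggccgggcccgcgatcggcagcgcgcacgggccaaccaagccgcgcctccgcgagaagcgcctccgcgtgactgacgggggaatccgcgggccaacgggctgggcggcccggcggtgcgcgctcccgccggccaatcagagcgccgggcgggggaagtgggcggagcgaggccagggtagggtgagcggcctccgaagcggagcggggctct
The letters searched were TTTGGCGC, TTTCCCGC, TTTGCCGC and TTTCGCGC on both strands, and 3.31% of 35116 RefSeq windows of this length held one. In EZH2 the match TTTGGCGC began 1 base after the transcript start, and in SUZ12 the match TTTCCCGC began at position -189 relative to the start. All 10 members had a window in the table, 15 windows in all, and 2 of the 15 held E2F letters. The letters TTTGAA and TTCGAA of the cell cycle homology region, searched on both strands, occurred in 16.4% of all windows and in 2 of the 15 member windows, 1 of SUZ12 and 1 of PCGF5. Member windows were rich in the dinucleotide CpG, with a median of 40 CpG per window against 14 over all windows. PCGF5 gave 4 of the member windows, some of them overlapping, and all windows include those of genes not measured here. A match describes the letters of a window and does not show that a factor bound there.

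BMI1 transcripts were the PRC1 transcripts with the largest difference, and they were lower in SP11. BMI1 (ENSG00000168283, chromosome 10, 22321099 to 22331484, plus strand) encodes the PCGF protein of canonical PRC1 and supports self-renewal of blood stem cells, in part by silencing CDKN2A. It had 1031 UMIs or 109 CPM (102 to 115) in SP11, against 5450 UMIs or 281 CPM (274 to 289) in control. The intervals of both libraries lay far apart. The log2 ratio was -1.37 (-1.47 to -1.28), which is -1.02 relative to the median gene. No single cell carried it, since the richest SP11 cell held 12 BMI1 UMIs and the richest control cell held 25.

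Of the 10 members, all of which passed the minimum of 50 UMIs, 2 were at least 1.5-fold lower in SP11, BMI1 and PCGF5, and 38.4% of all measured genes were. None of the 10 was at least 1.5-fold higher, against 10.7% of all measured genes. The share of lower members was thus below that of the background, and the median log2 ratio of the members, -0.30, lay close to the median of all genes. Relative to the median gene, BMI1 and PCGF5 were still at least 1.5-fold lower and 24.3% of all measured genes were, while PCGF1 alone was at least 1.5-fold higher and 22.5% were.

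PCGF5 (ENSG00000180628, chromosome 10, 91163012 to 91284337, plus strand) is a PCGF protein of variant PRC1, the form that carries RYBP or YAF2 in place of a CBX protein. It had 122 UMIs or 12.8 CPM (10.7 to 15.3) in SP11, against 590 UMIs or 30.5 CPM (28.0 to 33.0) in control, a log2 ratio of -1.25 (-1.54 to -0.96). PCGF5 has 113014 bases of intron, and measured genes with a like intronic length had a median log2 ratio of -0.59. With that trend subtracted PCGF5 lay at -0.66. For BMI1, with 5991 bases of intron, genes of like intronic length had a median of 0.02 and the subtracted value was -1.39.

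PCGF3 and PCGF6, which also form variant PRC1, lay near the median gene. PCGF6 (ENSG00000156374, chromosome 10, 103302796 to 103351144, minus strand), the subunit of the variant complex with E2F6 and MGA, was at 32.8 CPM (29.3 to 36.7) in SP11 and 45.9 CPM (42.9 to 49.0) in control, a log2 ratio of -0.48 (-0.67 to -0.29). PCGF3 (ENSG00000185619, chromosome 4, 705748 to 770089, plus strand) was at 21.5 CPM (18.6 to 24.6) in SP11 and 29.7 CPM (27.3 to 32.2) in control, a log2 ratio of -0.47 (-0.70 to -0.23). An antisense transcript, PCGF3-AS1, overlaps PCGF3. Relative to the median gene both differed by little, at -0.13 for PCGF6 and -0.11 for PCGF3.

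PCGF1 was the member with the highest ratio of CPM. PCGF1 (ENSG00000115289, chromosome 2, 74505043 to 74507695, minus strand) is the PCGF protein of the variant complex with KDM2B and BCOR, which binds CpG islands. It was at 11.2 CPM (9.14 to 13.5) in SP11 and 8.98 CPM (7.70 to 10.4) in control, from 106 and 174 UMIs. These intervals overlapped, and that of the log2 ratio of 0.31 reached below 0 (-0.05 to 0.67). PCGF1 stayed highest with TMM and DESeq2 scaling (0.66 and 0.68). With every cell weighted equally it lay at 0.07, below EED at 0.39. EED was also above PCGF1 in cells with 8000 to 16000 UMIs (0.48 against 0.25) and with the intronic length trend subtracted (0.57 against 0.19).

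The catalytic RING proteins of PRC1 were close to level in CPM. RNF2 (ENSG00000121481, chromosome 1, 185045526 to 185102603, plus strand), the E3 ubiquitin ligase also called RING1B, was at 26.3 CPM (23.2 to 29.8) in SP11 and 26.1 CPM (23.8 to 28.4) in control, a log2 ratio of 0.01 (-0.21 to 0.24). RING1 (ENSG00000204227, chromosome 6, 33208500 to 33212722, plus strand), its paralog, was at 10.4 CPM (8.47 to 12.7) in SP11 and 11.7 CPM (10.2 to 13.3) in control, a log2 ratio of -0.17 (-0.52 to 0.18). TMM and DESeq2 scaling put RNF2 at 0.36 and 0.38, higher in SP11, and RING1 at 0.18 and 0.20, and RNF2 lay at 0.48 with the intronic length trend subtracted. Both CPM ratio intervals contained 0, and the ratio of RNF2 to RING1 UMIs differed by a factor of 1.13 between SP11 and control with an interval that contained 1 (0.8504 to 1.52).

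**Figure D1:**
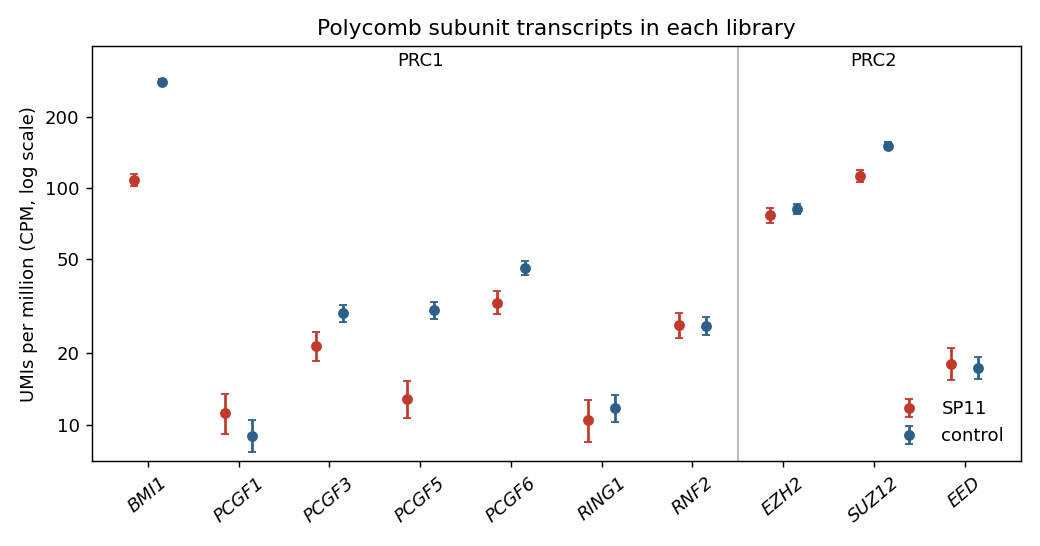
CPM of the 10 members on a log scale, SP11 in red and control in blue, with exact 95% Poisson intervals that cover counting error only. BMI1 lies at 109 CPM in SP11 and 281 CPM in control and PCGF5 at 12.8 and 30.5 CPM, while RNF2, EZH2 and EED nearly coincide on the CPM scale.

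Among the PRC2 subunits, EZH2 and EED were close to level in CPM and SUZ12 was lower in SP11. EZH2 (ENSG00000106462, chromosome 7, 148807257 to 148884321, minus strand), the methyltransferase whose promoter is printed above, had 732 UMIs or 77.1 CPM (71.6 to 82.9) in SP11, against 1583 UMIs or 81.7 CPM (77.7 to 85.8) in control. These intervals overlapped, and the log2 ratio was -0.08 (-0.21 to 0.04), with the opposite sign under TMM and DESeq2 scaling (0.26 and 0.28). EED (ENSG00000074266, chromosome 11, 86201212 to 86278813, plus strand), which reads the methyl mark, was at 18.1 CPM (15.5 to 21.0) in SP11 and 17.3 CPM (15.5 to 19.3) in control, a log2 ratio of 0.06 (-0.21 to 0.33). EED thus did not differ in CPM beyond counting error. With TMM and DESeq2 scaling it lay at 0.41 and 0.43, and with every cell weighted equally at 0.39, all higher in SP11. In cells of like depth, with 8000 to 16000 UMIs in both libraries, the log2 ratio was 0.30 for EZH2 and 0.48 for EED.

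SUZ12 (ENSG00000178691, chromosome 17, 31937007 to 32001038, plus strand), the scaffold subunit, had 1069 UMIs or 113 CPM (106 to 119) in SP11, against 2937 UMIs or 152 CPM (146 to 157) in control. Its log2 ratio was -0.43 (-0.53 to -0.33), which is -0.08 relative to the median gene. SUZ12 has a near-identical pseudogene copy, SUZ12P1, so its count is uncertain. With the trend over intronic length subtracted, SUZ12 lay at 0.04, EZH2 at 0.42 and EED at 0.57.

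Summed over subunits, PRC1 transcripts were lower in SP11 by more than PRC2 transcripts were. The 7 PRC1 members summed to 2124 UMIs or 224 CPM (214 to 233) in SP11, against 8410 UMIs or 434 CPM (425 to 443) in control, a log2 ratio of -0.96 (-1.03 to -0.89). The 3 PRC2 members summed to 1973 UMIs or 208 CPM (199 to 217) in SP11, against 4856 UMIs or 251 CPM (244 to 258) in control, a log2 ratio of -0.27 (-0.35 to -0.20). Scaling decides the sign of the PRC2 sum, which was 0.07 with TMM and 0.09 with DESeq2 size factors, while the PRC1 sum stayed below 0 with both (-0.61 and -0.59).

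The ratio of PRC1 to PRC2 UMIs needs no scaling, because both are taken from the same library. It was 1.08 in SP11 and 1.73 in control, an odds ratio of 0.622 (0.579 to 0.668). BMI1 carried most of this difference. Without BMI1 the remaining 6 PRC1 members had a ratio to PRC2 of 0.554 in SP11 and 0.610 in control, an odds ratio of 0.909 (0.832 to 0.992), and their summed log2 ratio was -0.41 (-0.51 to -0.31). Without SUZ12 the odds ratio of PRC1 to PRC2 was 0.536 (0.488 to 0.589).

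**Figure D2:**
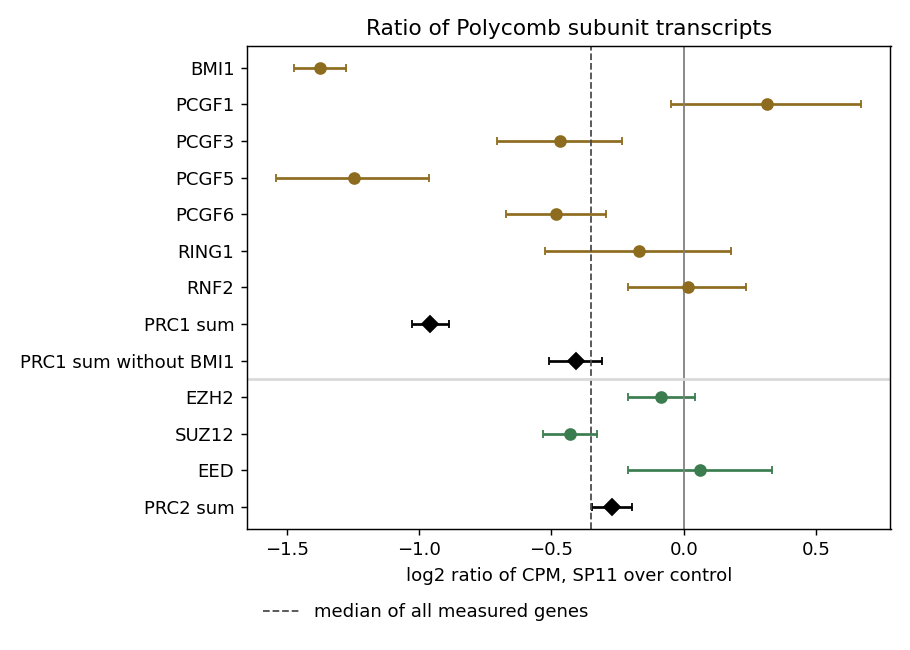
Log2 ratio of SP11 CPM to control CPM for each member and for the summed subunits, with 95% counting intervals, and a dashed line at the median gene (-0.35). BMI1 (-1.37) and PCGF5 (-1.25) lie far left of the line, SUZ12, PCGF3 and PCGF6 lie on it, and the PRC1 sum without BMI1 (-0.41) lies near it, while TMM scaling turns the sign of the PRC2 sum.

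BMI1 sits beside another gene in the genome, which allows a comparison at the same locus. COMMD3 (chromosome 10, 22316386 to 22320306, plus strand) ends just upstream of BMI1, and transcripts that run through both are annotated but have no row of their own in the files. COMMD3 was at 86.4 CPM (80.6 to 92.6) in SP11 and 121 CPM (116 to 126) in control, a log2 ratio of -0.49 (-0.60 to -0.37). The ratio of BMI1 to COMMD3 UMIs was 1.26 in SP11 and 2.32 in control, an odds ratio of 0.541 (0.487 to 0.601), so BMI1 was lower by more than its upstream neighbour.

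The 6 PCGF paralogs take the same place in PRC1, so their division was compared as shares of all PCGF UMIs. BMI1 made up 57.7% (55.3 to 60.0) of 1788 PCGF UMIs in SP11, against 70.2% (69.2 to 71.2) of 7761 in control. PCGF6 took 17.4% (15.7 to 19.3) in SP11 and 11.5% (10.8 to 12.2) in control, and PCGF3 took 11.4% (9.97 to 13.0) in SP11 and 7.41% (6.84 to 8.01) in control. PCGF1 took 5.93% (4.88 to 7.13) in SP11 and 2.24% (1.92 to 2.60) in control. The shares of PCGF1, PCGF3 and PCGF6 were thus higher in SP11 beyond counting error. Shares of the same total are tied, so a lower BMI1 share goes with higher shares of others. Only PCGF1 had a higher CPM in SP11, and not beyond counting error. The share of PCGF5 was 6.82% (5.70 to 8.09) in SP11 and 7.60% (7.02 to 8.21) in control, with overlapping intervals. PCGF2, the paralog closest to BMI1 and no member here, had 13 UMIs in SP11 and 83 in control, or 0.727% and 1.07% of PCGF UMIs.

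**Figure D3:**
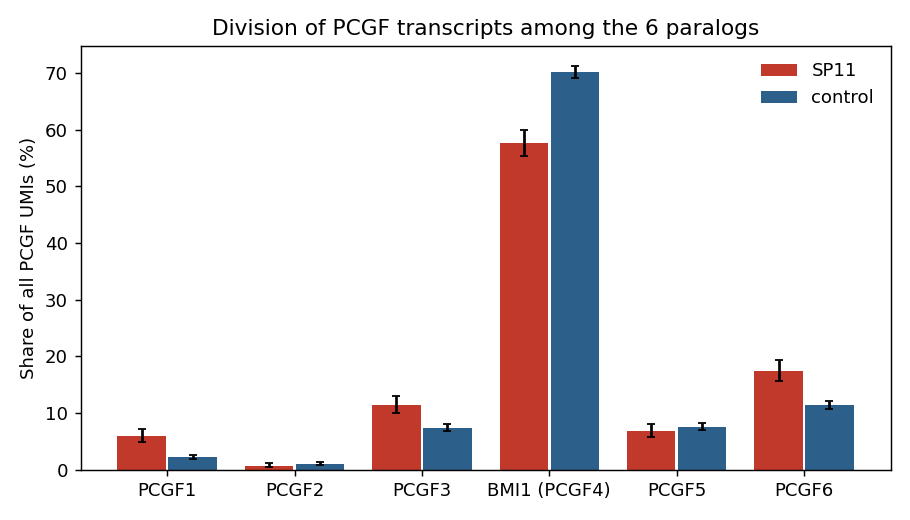
Share of all PCGF UMIs taken by each of the 6 paralogs, SP11 in red and control in blue, with exact 95% binomial intervals. BMI1 takes 57.7% in SP11 and 70.2% in control, and PCGF1, PCGF3 and PCGF6 take larger shares in SP11.

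For EZH2 the paralog is EZH1, which forms a PRC2 of lower methyltransferase activity. The ratio of EZH2 to EZH1 UMIs was 6.54 in SP11 and 3.17 in control, an odds ratio of 2.06 (1.64 to 2.60). EZH2 itself was close to level in CPM, and EZH1 had 112 UMIs or 11.8 CPM in SP11, against 499 UMIs or 25.8 CPM in control. The share of EZH2 in the EZH UMIs was 86.7% (84.3 to 88.9) in SP11 and 76.0% (74.1 to 77.9) in control.

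The share of cells with a UMI was compared at 4400 UMIs per cell, as the share expected after drawing that many UMIs from each cell. This left out 83 SP11 and 90 control cells with fewer UMIs. At this depth 35.2% (31.8 to 38.7) of 769 SP11 cells had a BMI1 UMI, against 64.5% (61.4 to 67.6) of 963 control cells. Without equal depth the shares were 57.2% in SP11 and 87.2% in control. PCGF5 was found in 5.53% (4.03 to 7.39) of SP11 cells and 12.1% (10.1 to 14.3) of control cells. BMI1 and PCGF5 UMIs were thus found in fewer SP11 cells, with intervals that did not overlap, as well as being fewer in sum.

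For the PRC2 members the shares of cells were closer. EZH2 was found in 28.0% (24.8 to 31.3) of SP11 cells and 27.7% (24.9 to 30.7) of control cells at equal depth, whereas the unequal depths gave 52.2% in SP11 and 64.7% in control. SUZ12 was found in 38.4% (34.9 to 41.9) of SP11 cells and 47.3% (44.1 to 50.5) of control cells. EED, RNF2, RING1 and PCGF1 had overlapping intervals between the libraries, with shares between 3.85% and 11.1%. PCGF3 was found in 9.43% of SP11 and 12.02% of control cells and PCGF6 in 14.0% of SP11 and 17.6% of control cells, also with overlapping intervals.

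Any PRC1 member was found in 62.0% (58.4 to 65.4) of SP11 cells and 81.6% (79.0 to 84.0) of control cells, and any PRC2 member in 58.4% (54.8 to 61.9) of SP11 cells and 64.0% (60.9 to 67.1) of control cells. The gap was thus wider for PRC1 than for PRC2, as it was for the sums. BMI1 alone was found in 35.2% of SP11 and 64.5% of control cells, and the share for PRC1 without BMI1 was not computed. BMI1 and RNF2 were found in the same cell in 3.50% of SP11 cells and 6.73% of control cells, where the product of their single shares was 3.89% and 6.77%. EZH2, SUZ12 and EED were found together in 1.17% of SP11 cells and 1.01% of control cells, where the products were 0.865% and 0.930%, each inside the interval of the share. The libraries held no cell type known to lack Polycomb subunits, so the share that free RNA gives in such cells was not measured.

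Levels were then compared over the cell cycle, with each cell put in G1, S or G2M by Seurat scores made from 43 S and 54 G2M genes, none of them a member. SP11 had 228 G1, 265 S and 359 G2M cells, and control had 336, 352 and 365. BMI1 was highest in G2M in both libraries. Its level was 85.1 CPM in G1, 78.1 CPM in S and 140 CPM in G2M cells of SP11, and 223, 222 and 370 CPM in those of control. The fold of G2M over G1 was 1.64 in SP11 and 1.66 in control, so BMI1 had nearly the same cycle pattern at both levels. Ordered by level, SP11 S and SP11 G1 cells had overlapping intervals, SP11 G2M cells stood next, control S and control G1 cells overlapped above them, and control G2M cells were highest. Within each phase BMI1 was lower in SP11, with log2 ratios of -1.39 (-1.62 to -1.16) in G1, -1.51 (-1.71 to -1.30) in S and -1.40 (-1.53 to -1.28) in G2M.

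EZH2 was higher in S than in G1 in both libraries. It was at 64.4 CPM in G1, 101 CPM in S and 67.7 CPM in G2M cells of SP11, and at 52.5, 95.01 and 89.3 CPM in those of control. The fold of S over G1 was 1.57 in SP11 and 1.81 in control. On the CPM scale EZH2 was lower in SP11 in G2M, with a log2 ratio of -0.40 (-0.60 to -0.20). The intervals in G1 (0.29, -0.01 to 0.60) and S (0.09, -0.12 to 0.29) contained 0. The median gene over all phases lay at -0.35, near the G2M value and below the G1 and S intervals. The phase in which EZH2 differed therefore depends on the scale. In SP11 the G2M level of EZH2 was 0.671-fold that in S, a log2 ratio of -0.58 (-0.81 to -0.34). In control it was 0.940-fold, and that interval contained 0 (-0.09, -0.25 to 0.07), so S and G2M cells of control did not differ beyond counting error.

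PCGF6 was highest in S cells of control and flat over the phases of SP11. It was at 33.1 CPM in G1, 32.5 CPM in S and 33.0 CPM in G2M cells of SP11, and at 37.8, 60.1 and 39.0 CPM in those of control. The fold of S over G1 was 0.981 in SP11 and 1.59 in control, and the within-phase log2 ratio was -0.89 (-1.23 to -0.56) in S, against -0.19 (-0.60 to 0.21) in G1 and -0.24 (-0.54 to 0.05) in G2M. The PCGF6 ratio was thus lowest in S cells, where its interval overlapped that of G1 but not that of G2M. As log2 ratios, S over G1 was -0.03 (-0.49 to 0.44) in SP11 and 0.67 (0.42 to 0.93) in control. These intervals overlapped. SUZ12 had a fold of S over G1 of 1.07 in SP11 and 1.35 in control.

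At least 1.5-fold higher in S than in G1 were 1 of the 10 members in SP11, EZH2, and 10.9% of all measured genes, and 2 of 10 in control, EZH2 and PCGF6, and 5.99% of all measured genes. For G2M over G1 the count was 2 of 10 in SP11, BMI1 and EED, beside 12.8% of all measured genes, and 2 of 10 in control, BMI1 and EZH2, beside 6.84%. EED had 93 UMIs or 21.0 CPM in G2M and 29 UMIs or 13.3 CPM in G1 cells of SP11, a log2 ratio of 0.65 (0.04 to 1.31), and the control ratio was -0.01 (-0.42 to 0.41). These intervals overlapped. Median UMIs per cell also moved with phase, at 8772, 10044 and 11992 in G1, S and G2M cells of SP11 and 14979, 18360 and 20823 in those of control, and the part of depth in the phase calls was not tested.

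**Figure D4:**
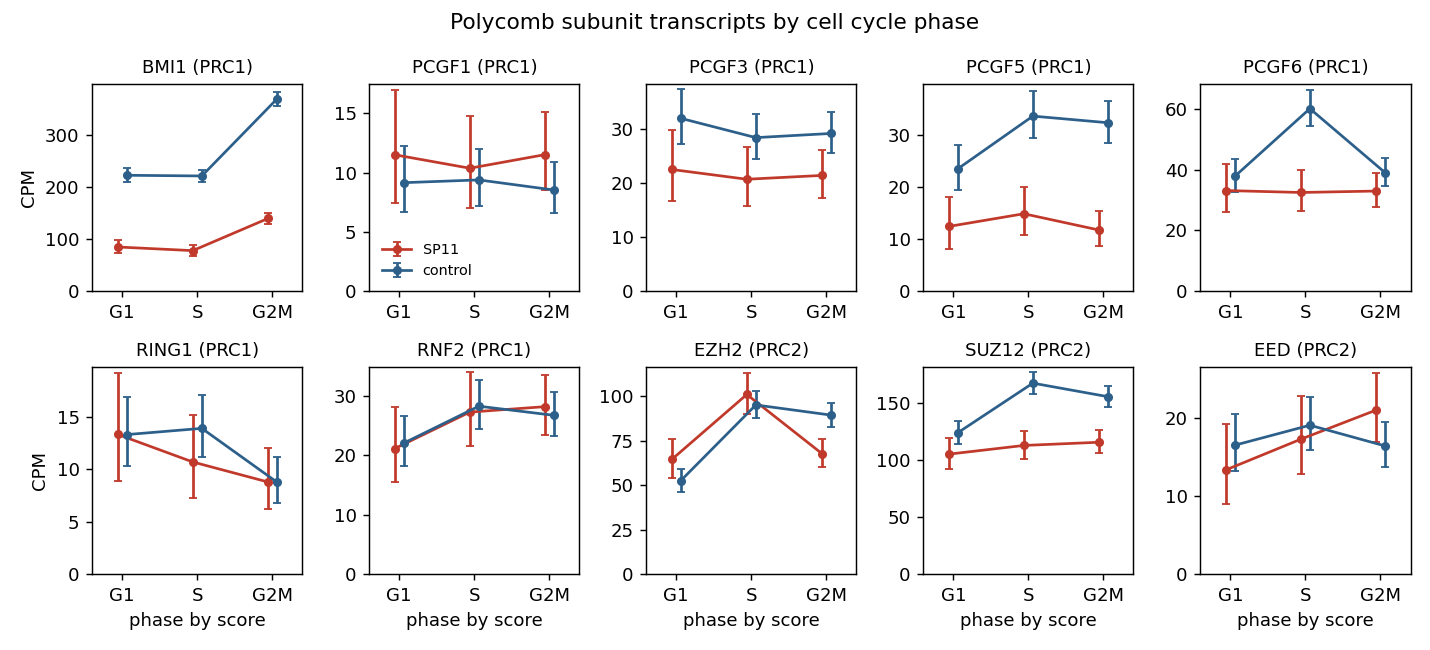
CPM of each member in G1, S and G2M cells, SP11 in red and control in blue, with exact 95% Poisson intervals and a separate scale for each gene. BMI1 is highest in G2M cells of both libraries (140 CPM in SP11, 370 CPM in control), EZH2 is higher in S (101 and 95.01 CPM) than in G1 (64.4 and 52.5 CPM), and PCGF6 has a peak in S in control (60.1 CPM) but is flat in SP11.

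The other subunits were followed through 5 lists of 51 genes, of which 48 were measured. Of these, 14 were at least 1.5-fold lower in SP11 (38.4% of all measured genes were) and 4 were at least 1.5-fold higher (10.7% were), with a median log2 ratio of -0.37. On the CPM scale the share of lower partner genes was thus below that of all measured genes, and their median lay close to the median gene. Relative to the median gene 10 were lower and 8 higher (24.3% and 22.5% of all measured genes were). The counts were 10 and 10 with DESeq2 scaling, and 6 and 8 with the intronic length trend subtracted. The lists differed in how many of their genes were lower.

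On the CPM scale canonical PRC1 partners, which bind the complex with BMI1 or PCGF2, included 7 lower genes and none higher among 11 measured. Of all measured genes 38.4% were lower and 10.7% higher. The median of the list was -1.05. Relative to the median gene 6 were lower, beside 24.3% of all measured genes. CBX7 and CBX8, chromodomain proteins that read methylated H3 lysine 27, had 7 and 19 UMIs in SP11, against 81 and 151 UMIs in control, with log2 ratios of -2.50 (-3.86 to -1.40) and -1.96 (-2.73 to -1.27). PCGF2 was at 1.37 CPM in SP11 and 4.28 CPM in control, a log2 ratio of -1.65 (-2.61 to -0.79). SCMH1, an SCM-type Polycomb protein, was at 120 CPM in SP11 and 271 CPM in control, a log2 ratio of -1.18 (-1.27 to -1.08). Much of the SCMH1 difference went with intronic length, since the value with that trend subtracted was -0.35. With the same trend subtracted, PHC3 lay at -0.48 and SCML2 at -0.26, within 1.5-fold, and PHC2 lay at 0.82, higher in SP11. Those still at least 1.5-fold lower were CBX7, CBX8, PHC1 and PCGF2, with 7, 19, 18 and 13 UMIs in SP11. CBX6 took 55.7% (52.2 to 59.1) of the CBX UMIs of this list in SP11 and 44.3% (42.0 to 46.6) in control, and CBX8 took 2.31% (1.40 to 3.59) and 8.17% (6.96 to 9.51).

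Variant PRC1 partners lay closer to level, with 2 lower and 1 higher among 16 measured and a median of -0.22. The shares of all measured genes were 38.4% and 10.7%. Relative to the median gene the balance was the opposite, with 1 lower and 4 higher, beside 24.3% and 22.5% of all measured genes. The lower genes were BCORL1, a corepressor of the PCGF1 complex, at -1.05 (-1.44 to -0.67), and FBRSL1, a relative of AUTS2, at -0.82 (-1.15 to -0.50). SKP1, which also serves the SCF ubiquitin ligases, was at 276 CPM in SP11 and 179 CPM in control, a log2 ratio of 0.62 (0.55 to 0.70). The partners that replace CBX proteins, RYBP and YAF2, were at -0.21 and -0.23.

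PRC2 partners included 2 lower and 2 higher genes among 10 measured, beside 38.4% and 10.7% of all measured genes, with a median of -0.18. EPOP, which links PRC2 to elongin, was at 25.1 CPM in SP11 and 7.79 CPM in control, a log2 ratio of 1.68 (1.38 to 1.99). PHF19, a Polycomb-like protein that brings PRC2 to chromatin, was at 108 CPM in SP11 and 58.0 CPM in control, a log2 ratio of 0.90 (0.77 to 1.02). EZH1 was at -1.13 (-1.44 to -0.83) and JARID2, a cofactor of PRC2, at -0.79 (-0.89 to -0.69), where the value of JARID2 was 0.23 with the intronic length trend subtracted. RBBP4, a histone chaperone subunit, was close to level at 0.12 (0.04 to 0.20).

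The PR-DUB complex, which removes ubiquitin from H2A, had 3 lower and 1 higher among 9 measured genes. Of all measured genes 38.4% were lower and 10.7% higher, so both counts lay near the background. BAP1, its deubiquitinase, was at 37.9 CPM in SP11 and 20.7 CPM in control, a log2 ratio of 0.87 (0.66 to 1.08). MBD5 was at -1.44 (-1.59 to -1.28), OGT, the O-GlcNAc transferase, at -1.06 (-1.21 to -0.91), and FOXK1, a forkhead factor, at -0.76 (-0.93 to -0.59). With the intronic length trend subtracted, MBD5 lay at -0.42, FOXK1 at -0.19 and OGT at -0.76. The demethylases of H3 lysine 27, KDM6A and KDM6B, were at -0.43 (-0.56 to -0.30) and 0.22 (-0.16 to 0.60), neither past 1.5-fold.

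**Figure D5:**
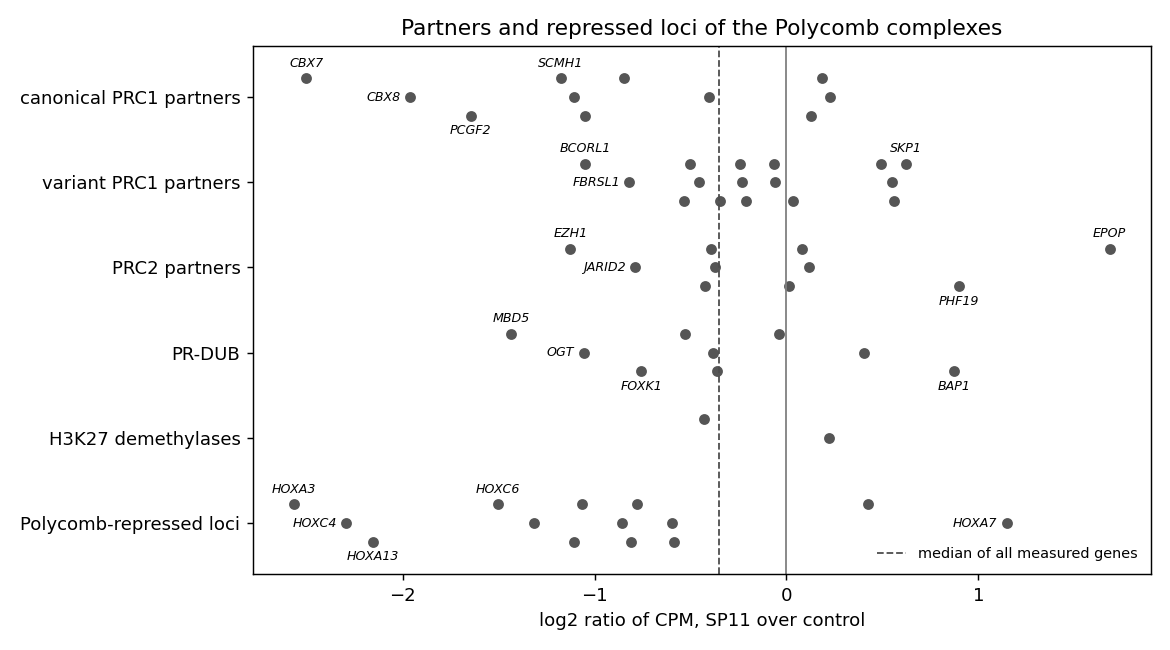
Log2 ratio of SP11 CPM to control CPM for each measured gene of the 5 partner lists and of the Polycomb-repressed loci, 1 point per gene, staggered vertically within a list, and a dashed line at the median gene (-0.35). Canonical PRC1 partners and repressed loci lie mostly left of the line, and EPOP (1.68), HOXA7 (1.15), PHF19 (0.90) and BAP1 (0.87) lie farthest right.

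Textbook targets of Polycomb repression were followed as a list of 41 genes, namely CDKN2A, CDKN2B and the 39 HOX genes, of which 14 were measured. Of these, 12 were at least 1.5-fold lower in SP11 and 1 was higher, beside 38.4% and 10.7% of all measured genes, with a median of -0.96. Relative to the median gene 7 were lower and 2 were higher, beside 24.3% and 22.5%. HOXA3, HOXC4, HOXA13 and HOXC6, homeobox factors of body patterning, had the lowest ratios, at -2.57 (-3.27 to -1.94), -2.29 (-2.93 to -1.71), -2.16 (-2.46 to -1.86) and -1.50 (-2.15 to -0.91). HOXA13 was at 10.8 CPM in SP11 and 48.4 CPM in control. The higher gene was HOXA7, singled out after its values were seen, with 75 UMIs or 7.90 CPM in SP11 and 69 UMIs or 3.56 CPM in control, a log2 ratio of 1.15 (0.66 to 1.64). CDKN2A, the cell cycle inhibitor locus and also chosen after its values were seen, was at 73.6 CPM in SP11 and 154 CPM in control, a log2 ratio of -1.07 (-1.19 to -0.95). BMI1 and CDKN2A, a known target of BMI1, were both lower in SP11, and a link between them in these cells was not tested.

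The HOX clusters differed in whether they were transcribed at all. The 11 HOXA genes summed to 146 CPM in SP11 and 336 CPM in control, and the 9 HOXC genes to 16.0 and 36.6 CPM. All 10 HOXB genes had 0 UMIs in both libraries, and the 9 HOXD genes had 0 UMIs in SP11 and 1 in control. A count of 0 allows up to 0.316 CPM in SP11 and 0.155 CPM in control, the CPM of 3 UMIs.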

How the data were processed

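Single-cell RNA-seq was measured in 1 library of SP11-treated cells and 1 untreated control library, grouped by the treatment label. The authors deposited UMI counts per gene and barcode, not normalized, from Cell Ranger 7.1.0 per the file headers (GRCh38). Whether intronic reads were counted is not stated.

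Barcodes with at least 200 genes and at most 20% mitochondrial UMIs were kept, as in the study's methods, removing 12 SP11 and 23 control barcodes. The study kept fewer cells, with no further filter stated. Scrublet (scanpy 1.11.5) called 21 SP11 and 45 control doublets, which were kept. UMIs were summed over cells. Ratios carry Clopper-Pearson intervals of the UMI split, levels Poisson intervals, shares binomial intervals, and ratios of 2 genes or sums a conditional odds ratio interval. A size of at least 1.5-fold is a description, not a call. Phases were scored per library with Seurat 5.3.0 in R 4.3.3. Intronic length came from GENCODE 44, for 99.7% of measured genes, and its trend was the median log2 ratio in 20 bins. Promoters came from the RefSeq table. On simulated counts for SP11 over control (12128 genes), intervals held the true value for 96.5% of 200 changed genes. These counts were Poisson draws without spread between cells or libraries, so this checks the calculation only. Alternatives used edgeR 4.0.16 TMM factors and DESeq2 1.42.0 size factors, among others.

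The members, lists and alternatives were chosen with earlier results of these data known. Named partner genes are, per list, those at least 1.5-fold different, up to the 4 farthest from 0, with EZH1 and PCGF2. Others named were chosen after their values were seen. The mouse experiment was not analysed here.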

Additional observations from a re-analysis of the deposited data

How the results depend on the processing

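The values rest on 1 library per group, on 3' or 5' capture whose kind is not stated, and on UMIs that may come from introns, and depth limits PCGF1 and RING1 most, with 106 and 99 UMIs in SP11. No paired analysis was possible because each group had 1 library. BMI1 ranged from -1.45 to -1.01 and PCGF5 from -1.31 to -0.66 over 11 alternatives, both lower in all 11. The PRC1 log2 ratio was -0.61 with TMM, -0.59 with DESeq2 size factors, -0.79 in cells with 8000 to 16000 UMIs and -0.41 without BMI1. For PRC2 it was 0.073 with TMM and 0.093 with DESeq2, the opposite sign, -0.15 with every cell weighted equally, -0.046 in cells with 8000 to 16000 UMIs and -0.058 without SUZ12. The depth window was chosen after seeing the data, as was leaving out shared barcodes. The odds ratio of PRC1 to PRC2 was 0.560 with every cell weighted equally, 0.909 without BMI1 and 0.536 without SUZ12. With the trend over intronic length subtracted, PCGF3 lay at 0.0026 and SUZ12 at 0.040, against the sign of their ratios. Genes of like intronic length had a median log2 ratio of -0.47, close to the ratios of PCGF3 (-0.47) and SUZ12 (-0.43). Partner genes at least 1.5-fold higher numbered 8 with TMM, 10 with DESeq2 and 8 with that trend subtracted, where 6 were lower. Cells with any PRC1 UMI were 35.4% in SP11 and 55.2% in control at 2000 UMIs, 80.8% and 94.3% at 8000 UMIs, and 81.8% and 93.5% without equal depth. For any PRC2 UMI they were 33.5% and 37.8%, 78.6% and 83.9%, and 81.2% and 89.4%. Of the member ratios, 28 moved beyond counting error and 2 with intervals clear of 0 turned sign over the alternatives, while 80 did neither. With TMM and DESeq2, which move the median gene to about 0, RNF2 lay at 0.36 and 0.38, EED at 0.41 and 0.43, RING1 at 0.18 and 0.20, PCGF1 at 0.66 and 0.68, and PCGF6 at -0.14 and -0.12. The cause of these shifts was not tested.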

Other observations

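Genes whose profile over the 6 library-by-phase groups lay closest to that of BMI1 and EZH2 were sought among 9554 genes with at least 200 UMIs, by Euclidean distance between log2 CPM values centred on their mean. For BMI1 they were SNTB2 (distance 0.20), AC020916.1, AP002381.2, NAV2 and CLEC2B (0.41). SNTB2, a syntrophin, had 111 UMIs in SP11 and 605 in control, a log2 ratio of -1.42, and CLEC2B, a C-type lectin of blood cells, had 2314 UMIs in SP11 and 12618 in control, also -1.42. For EZH2 they were CTU2 (distance 0.28), PIP4P1, CDCA4, C21orf58 and BARD1 (0.36). BARD1, the partner of BRCA1 in DNA repair, had 608 UMIs in SP11 and 1570 in control, a log2 ratio of -0.34. The selection used the SP11 and control levels, so ratios close to those of BMI1 and EZH2 follow from it. The groups share their libraries, and closeness of profile is a description only.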
